A study of Mus musculus with 4 samples.

Results

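The promoters described here are GC-rich start regions of protein-coding genes that were called accessible in both peak lists of an ATAC-seq study of mouse hematopoietic stem cells (HSCs). They were chosen by 4 conditions read from the peak lists, the genome sequence and the annotation. The KO peak lay on an autosome and shared at least 1 bp with a WT peak, the distance from its summit to an annotated start of a protein-coding gene was at most 1000 bp, the 200 bp around that summit had a GC content of at least 60%, and no other protein-coding gene started on the opposite strand within 1000 bp. These conditions held for 7698 of the 28978 autosomal KO peaks that shared a WT peak (26.6%), out of 37639 peaks in the KO list and 37919 in the WT list. Accessibility in both lists, the position of the KO summit and GC content were used to choose the promoters and are therefore not results.

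ATAC-seq uses a transposase that cuts and tags open DNA, so that read pileups mark accessible regions. The cells were bone marrow HSCs of adult C57BL/6 mice, sorted as LSK cells with the surface phenotype CD150+CD34-CD48- (the study's methods give CD150+CD48-). WT mice were Med23floxp/flowp without cre and KO mice were Mx1-cre;Med23floxp/flowp, so the floxed alleles were common to both groups and the cre transgene was present in KO mice only. Mx1-cre is driven by an interferon-inducible promoter and was switched on in the study by poly(I:C), an inducer of interferon. It is not restricted to HSCs, and whether the WT mice of this assay also received poly(I:C) is not given in the labels. The labels assign 2 samples to each genotype, but 1 list of peaks stands for both of them, so every KO to WT difference below is a difference between 2 lists with no replicate spread and no test. The intervals given cover counting error only, and regions are not replicates. A higher pileup can come from a region being open in more cells or more often in each cell, and these cannot be told apart.

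Mammalian promoters fall into broad kinds by base composition. GC-rich promoters usually overlap CpG islands, stretches in which the CG dinucleotide has been kept because it is unmethylated in the germ line, and most genes with functions needed in every cell start in one. They tend to lack a TATA box, to start transcription over a spread of positions and to bind widely expressed activators such as SP and KLF proteins at GC boxes, NFY at CCAAT boxes, ETS proteins, NRF1 and CREB. Developmental regulators that are held silent by Polycomb also start in CpG islands, whereas genes used in a single differentiated cell type often have GC-poor promoters. Mediator, the complex to which MED23 belongs, passes signals from such activators to RNA polymerase II.

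The accessible windows below, 200 bp around the KO summit, give examples of these promoters in sequence. For each of 6 motifs, the promoter with the highest summed WT and KO pileup was taken among those whose window held the motif and no annotated exon. Capitals mark every match of that motif on either strand. The motifs are the GC box (GGGCGG or CCGCCC) for Pja2, the ETS motif (CCGGAAG or CTTCCGG) for Hmgcs1, the NRF1 motif (GCGCATGCG or CGCATGCGC) for Tedc1, the CREB motif (TGACGTCA) for Ift57, the YY1 motif (AAGATGGC or GCCATCTT) for Napepld and the TATA box (TATAAA or TTTATA) for Gsk3b. All are in mm10 and are written 5′ to 3′ on the strand of the gene. A match describes letters and does not show that a factor is bound.
Pja2, chr17:64332056-64332255, minus strand: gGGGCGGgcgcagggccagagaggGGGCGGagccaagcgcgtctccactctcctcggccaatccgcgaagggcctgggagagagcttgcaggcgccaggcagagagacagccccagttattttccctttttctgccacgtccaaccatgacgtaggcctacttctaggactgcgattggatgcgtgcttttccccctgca
Hmgcs1, chr13:119690125-119690324, plus strand: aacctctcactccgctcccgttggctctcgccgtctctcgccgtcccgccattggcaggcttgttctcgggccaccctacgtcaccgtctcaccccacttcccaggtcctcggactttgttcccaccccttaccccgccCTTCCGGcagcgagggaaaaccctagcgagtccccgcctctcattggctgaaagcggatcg
Tedc1, chr12:113156099-113156298, plus strand: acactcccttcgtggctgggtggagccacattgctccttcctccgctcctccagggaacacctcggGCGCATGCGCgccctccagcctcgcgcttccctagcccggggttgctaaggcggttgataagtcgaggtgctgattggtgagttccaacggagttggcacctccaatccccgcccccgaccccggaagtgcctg
Ift57, chr16:49699026-49699225, plus strand: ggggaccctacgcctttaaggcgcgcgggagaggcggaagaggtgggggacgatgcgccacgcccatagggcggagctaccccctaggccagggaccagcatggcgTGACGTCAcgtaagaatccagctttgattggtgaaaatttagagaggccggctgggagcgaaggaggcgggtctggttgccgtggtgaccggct
Napepld, chr5:21701457-21701656, minus strand: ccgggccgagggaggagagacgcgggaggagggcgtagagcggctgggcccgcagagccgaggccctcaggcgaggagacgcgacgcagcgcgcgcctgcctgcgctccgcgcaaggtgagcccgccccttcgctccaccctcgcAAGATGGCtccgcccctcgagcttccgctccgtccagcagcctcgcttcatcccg
Gsk3b, chr16:38088708-38088907, plus strand: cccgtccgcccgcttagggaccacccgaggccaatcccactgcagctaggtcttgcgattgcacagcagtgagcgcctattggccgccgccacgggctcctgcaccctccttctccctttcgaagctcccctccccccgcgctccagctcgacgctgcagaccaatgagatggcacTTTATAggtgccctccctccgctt

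These windows lay upstream of the nearest annotated start, from position -339 to -140 at Pja2 (which encodes an E3 ubiquitin ligase) and from -207 to -8 at Ift57 (which encodes a protein of the transport system of cilia). The choice of windows without an exon favours such positions, whereas the median KO summit of the GC-rich promoters lay at -15 bp. Several motifs stood together. The Pja2 window held 2 CCAAT boxes beside its 2 GC boxes, the Hmgcs1 window (a cholesterol synthesis enzyme) 2 CCAAT boxes, 1 GC box and 1 ETS match, and the Gsk3b window (a protein kinase of the Wnt pathway) 3 CCAAT boxes, 1 GC box and 1 TATA box. The summit pileup, the number of reads or fragments over the highest base of the peak, was 265 in WT and 287 in KO at Pja2, 155 in both lists at Hmgcs1, 136 and 166 at Tedc1, 101 and 95 at Ift57, 73 and 93 at Napepld and 207 and 203 at Gsk3b. The direction of the raw difference was thus not common to these 6 promoters.

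The deleted gene and the myeloid gene named by the study are both members, and their exon-free sequence upstream of the start is shown for that reason, with capitals on every match of the 16 motifs searched. The Med23 stretch holds 1 GC box, and the Cebpa stretch 1 CTCF match (CNAGGGGGC) and 1 TATA box.
Med23, chr10:24869843-24869985, plus strand: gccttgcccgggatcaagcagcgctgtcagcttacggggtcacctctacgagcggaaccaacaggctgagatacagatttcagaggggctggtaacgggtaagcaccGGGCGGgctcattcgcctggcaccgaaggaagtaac
Cebpa, chr7:35119107-35119292, plus strand: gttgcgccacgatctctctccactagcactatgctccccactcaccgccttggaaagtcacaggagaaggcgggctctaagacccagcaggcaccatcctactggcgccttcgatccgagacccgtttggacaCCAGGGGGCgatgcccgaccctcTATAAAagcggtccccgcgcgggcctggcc

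At Med23, the summit lay at -43 bp from the start, with a pileup of 64 in WT and 85 in KO. After each pileup was divided by the genome-wide background of its list (1.19 in WT and 1.13 in KO), the log2 KO to WT ratio was 0.50 (95% exact binomial interval 0.01 to 0.99). That interval held both the value of equal raw pileups (0.086) and the median of all shared regions (0.17). The KO peak was 635 bp wide and the WT peak 586 bp, and their summits lay 2 bp apart. An open promoter says nothing about the floxed segment, so it does not check the labels. At Cebpa, which encodes a transcription factor of the myeloid lineage, the summit lay at -86 bp and the lists had pileups of 57 (WT) and 58 (KO), with a log2 ratio of 0.11 (-0.44 to 0.66).

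The 7698 promoters were the nearest coding starts of 7443 genes, 35.8% of the 20807 autosomal protein-coding genes, and 247 of these genes had more than 1 such promoter. The share of genes was lowest on chromosome 7 (24.1% of 2023 genes) and highest on chromosome 12 (45.6% of 643 genes). They made up 66.0% of the 11657 shared peaks at protein-coding starts. The remaining shared peaks at such starts were 2873 GC-poor promoters and 1086 bidirectional promoters, at which a second gene starts on the other strand. A further 1823 shared peaks were GC-rich and 15498 GC-poor away from coding starts. For 7474 of the 7698 promoters the merged region held exactly 1 peak of each list, and all paired values below refer to these among 28119 such regions.

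At the median, the GC-rich promoters had higher and wider peaks than every other class of shared regions except bidirectional promoters. The median KO pileup was 33 (quartiles 20 and 55) and the median WT pileup 33 (21 and 53), against 29 and 28 at GC-poor promoters, 44 and 44 at bidirectional promoters, 24 and 23 at GC-rich regions away from starts and 19 and 17 at GC-poor regions away from starts. Single promoters spanned a wide range, from 6 to 392 in KO and from 6 to 384 in WT. They formed 26.6% of the paired regions and held 35.4% of the summed KO pileup and 36.8% of the summed WT pileup. The median peak width was 946 bp in KO and 959 bp in WT, against 832 and 850 bp at GC-poor promoters, 1021 and 1029 bp at bidirectional promoters and 576 and 579 bp at GC-poor regions away from starts. Width and pileup ranked together across the promoters (Spearman rho 0.48 over 7474 promoters of the same list, given as a description).

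The highest KO pileup was at Hjurp, the chaperone that loads the centromeric histone CENP-A, with 384 in WT and 392 in KO. Pja2 followed with 265 and 287, Msantd4 with 218 and 280, Ifrd1 with 263 and 266, and B3galnt2, a glycosyltransferase, with 201 and 242. All 5 were high in both lists. The lowest KO pileup, 6, occurred at 5 promoters, among them the genes of a calcium channel subunit (Cacna2d2, 8 in WT), a nicotinic receptor subunit (Chrna5, 6 in WT) and a neuropeptide receptor (Npbwr1, 9 in WT). The other 2 were Car10 with 8 in WT and Tsku with 11 in WT. At such low pileups the interval of the ratio was wide, from -2.51 to 0.77 on the log2 scale at Tsku.

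**Figure D1:**
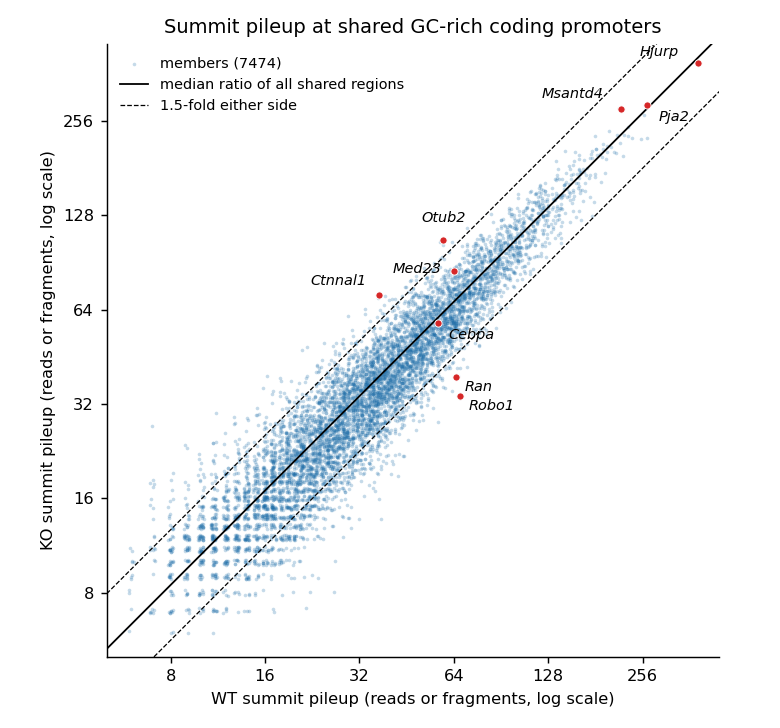
Each point is 1 of 7474 GC-rich promoters, placed by its WT summit pileup (x axis) and its KO summit pileup (y axis), both in reads or fragments on log2 axes, with a small random shift so that equal whole numbers do not hide each other. The solid line is the median ratio of all 28119 shared regions and the dashed lines lie 1.5-fold on either side. Named promoters are in red. The points follow the line over the whole range, with Hjurp at the top (384 and 392), and the cloud is narrower at high pileups.

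Within the GC-rich promoters, higher GC content went with wider but somewhat lower peaks. From promoters with 60 to 65% GC (2007 promoters) to those with 80% or more (389), the median KO width was 889 and then 1078 bp, and the median WT width 922 and then 1060 bp. The median pileup was 35 in each list in the first of these groups and 28 in each in the second. Over all promoters, GC content had a Spearman rho of 0.12 with KO width and -0.08 with KO pileup. The CpG ratio, the number of CG dinucleotides over the number that the counts of C and G would give by chance pairing, had a median of 0.86 (quartiles 0.72 and 0.98), against 0.53 at GC-poor promoters and 0.59 at GC-rich regions away from starts. The median window held 20 CG dinucleotides at the GC-rich promoters and 12 at the GC-rich regions away from starts. The GC threshold does not separate distinct groups, since 168 promoters had exactly 60% GC and 160 shared promoters had 59.5% and were left out. Just inside it were Msantd4, Zfp788 (261 in WT and 221 in KO) and Arrdc4 (193 and 199). Just outside it were Qdpr (243 and 295), Cetn3 (153 and 157) and Klf6 (148 and 130).

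The summits gathered just upstream of the start in both lists. The median position was -15 bp in KO and -20 bp in WT, and 57.7% of the summits were upstream in each list (95% Wilson intervals 56.6 to 58.8 in KO and 56.6 to 58.9 in WT). In KO, 62.6% lay within 100 bp of the start and 4.68% beyond 500 bp. In WT, the shares were 57.8% and 5.89%. At GC-poor promoters, the KO median was -41 bp, 65.04% of KO summits were upstream and 51.1% lay within 100 bp. The upstream share depends on which starts are taken: among promoters rebuilt with only the 5′ end of each gene, in place of all annotated transcript starts, 46.3% of KO summits were upstream. It also moved with depth, from 38.6% of promoters with a summed pileup under 30 to 75.4% of those with 200 or more. The nearest start was chosen by the KO summit, which by itself shortens the KO distances, and this bears on any contrast with the WT distances.

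**Figure D2:**
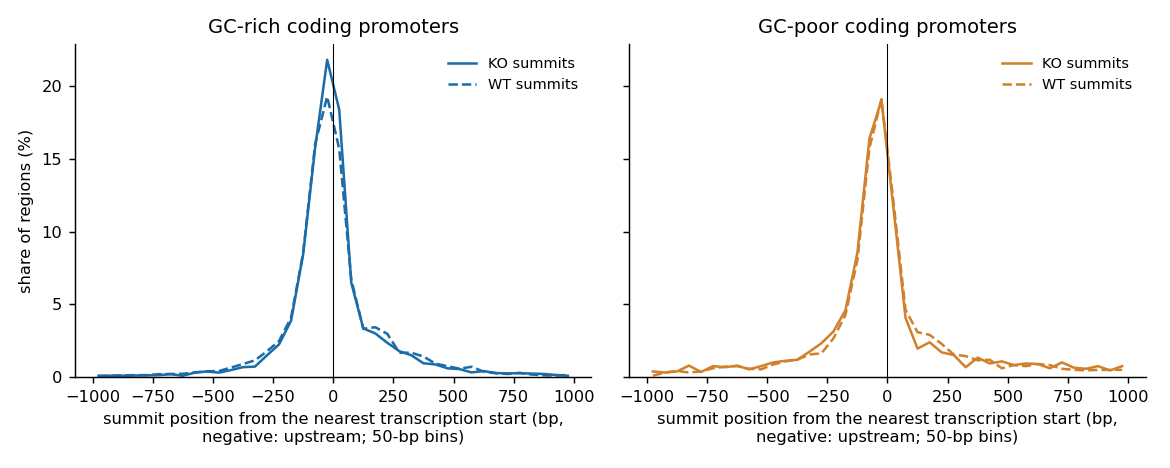
Share of regions (y axis, percent) by the position of the peak summit from the nearest protein-coding transcription start (x axis, bp in 50-bp bins, negative values upstream), for KO summits (solid) and WT summits (dashed) at 7474 GC-rich promoters (left) and 2743 GC-poor promoters (right). Summits in all 4 curves pile up around the start, with KO medians of -15 bp at GC-rich and -41 bp at GC-poor promoters.

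WT and KO placed the summit of the same promoter close together but not at the same base. The median distance between them was 44 bp (quartiles 13 and 110), 53.7% were within 50 bp (52.6 to 54.8), 315 were at the same base and 979 (13.1%) were over 200 bp apart. GC-poor promoters gave 53.4% within 50 bp, and all shared regions 55.1%. The share rose with pileup, from 32.4% at a summed pileup under 30 to 69.6% at 200 or more, where the 418 promoters have the most reads behind each summit. In these 2 groups, all shared regions gave 41.0% and 71.4%, and GC-poor promoters 32.6% and 74.3%. The GC-rich promoters were below all shared regions in every pileup group. Their share was 56.5% at 60 to 65% GC and 46.5% at 80% or more, along with the lower pileups of the second group.

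The base composition around the start was read on the strand of the gene. GC content at the GC-rich promoters was 54.7% in the 50 bp from -300 to -250 and 70.01% in the 50 bp before the start, and it remained at 67.3% from 250 to 300 bp downstream. At GC-poor promoters the same stretches had 48.9%, 57.1% and 57.1%. The GC rule was applied around the KO summit, and 62.6% of these summits lay within 100 bp of the start at GC-rich promoters. The GC level near the start and its gap to GC-poor promoters therefore follow from the choice. Downstream of the start, G exceeded C. The difference between G and C over their sum was 1.46% in the 50 bp before the start and 9.06% in the 50 bp after it at GC-rich promoters, and 0.50% and 8.29% at GC-poor promoters. The excess of G after the start was thus present at both kinds of promoter, although the GC rule fixes only the sum of G and C.

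Promoter motifs lay at characteristic distances from the start. In 20-bp bins from -300 to 300, GC boxes were most frequent from -60 to -40 (1877 of 24122 matches, 2.67 times the median bin), CCAAT boxes from -80 to -60 (486 of 5390, 2.93 times), NRF1 matches from -60 to -40 (72 of 550, 8.47 times) and CREB matches from -60 to -40 (43 of 318, 9.56 times). YY1 matches were most frequent downstream, from 20 to 40 (100 of 548, 8.33 times), and only 28.5% of them were upstream, against 75.4% of the CCAAT boxes. ETS matches peaked from 0 to 20 (226 of 2166, 4.81 times). The TATA box, which binds the TATA-binding protein, had 66 of its 692 matches from -40 to -20, where the median bin had 15. TATA letters were also frequent far upstream, and the median position of the matches was -150.5 bp. Motifs of blood transcription factors had their fullest bins from -280 to -260 for RUNX (TGTGGTT or AACCACA, 2.32 times the median bin) and for GATA (3.20 times, from 173 matches), from -260 to -240 for CEBP (2.63 times), from -220 to -200 for AP1 (2.27 times) and from 0 to 20 for PU1 (GAGGAAGT or ACTTCCTC, 2.00 times).

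**Figure D3:**
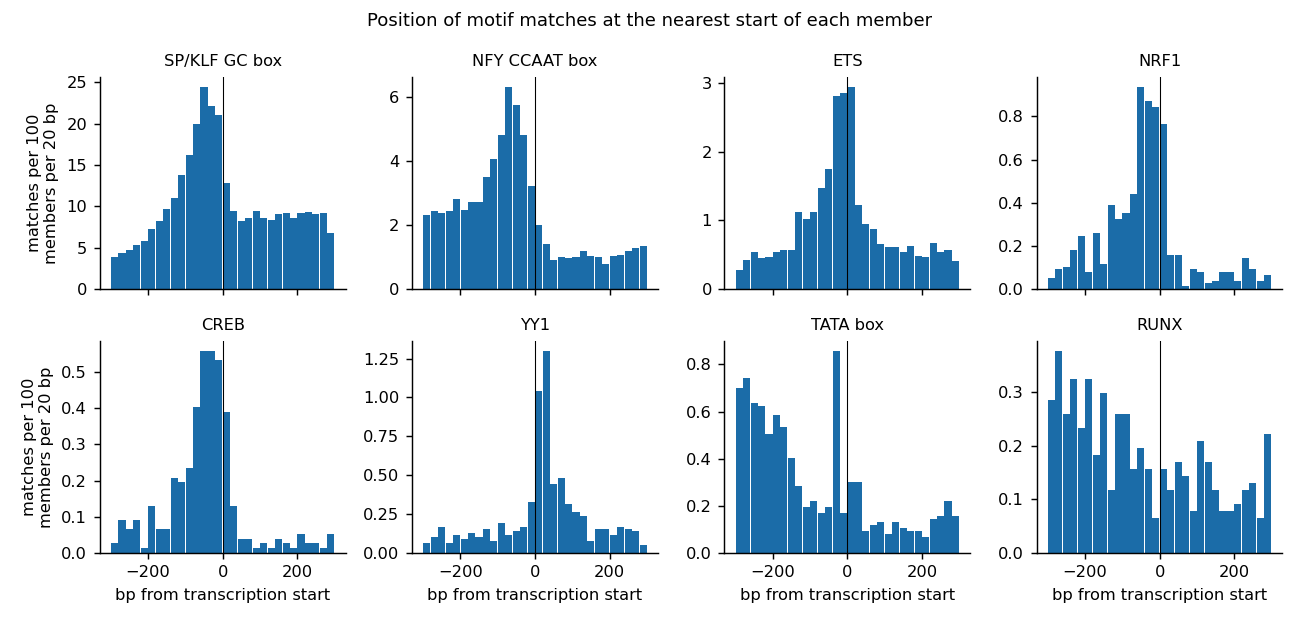
Matches per 100 promoters in each 20-bp bin (y axes, scaled separately for each motif) by position from the nearest transcription start (x axes, bp, negative values upstream) for 8 of the 16 motifs at 7698 GC-rich promoters. GC boxes, CCAAT boxes, NRF1 and CREB matches rise upstream of the start, YY1 matches rise from 20 to 40 bp downstream, the TATA box has its highest bin from -40 to -20 beside raised bins far upstream, and RUNX matches are most frequent from -280 to -260.

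In the 200 bp around the KO summit, the GC box was found in 71.6% of the GC-rich promoters (95% Wilson interval 70.6 to 72.6), 26.7% of GC-poor promoters, 49.7% of GC-rich regions away from starts and 31.0% of all shared windows. Its letters are G and C alone, and its share rose with GC content, from 56.9% at 60 to 65% GC to 92.3% at 80% or more. The CCAAT box (CCAAT or ATTGG) was in 26.2%, against 37.5% of GC-poor promoters, 17.6% of GC-rich regions away from starts and 24.2% of all shared windows. The CCAAT box was thus the one motif of this pair that was commoner at GC-poor promoters. The ETS motif was in 13.5% (12.8 to 14.3), against 10.1% of GC-poor promoters, 6.58% of GC-rich regions away from starts and 7.18% of all shared windows, and it was commoner still at bidirectional promoters (23.4%). The NRF1 motif, bound by a regulator of genes of mitochondrial function, was in 2.40%, against 1.01%, 0.88% and 1.00% in the same order. The YY1 motif was in 3.33%, against 2.16%, 1.04% and 1.69%. These 3 motifs were more frequent at GC-rich promoters than at GC-poor ones, with intervals that did not overlap, whereas those of the CREB motif overlapped (2.70% and 2.33%, with 1.26% of GC-rich regions away from starts and 1.39% of all shared windows). The ZBTB33 motif (CTCGCGAG) was in 1.65%, against 0.56% of GC-poor promoters and 0.63% of all shared windows, and the E-box (CACGTG) in 7.92%, against 6.02% and 5.55%. The ZNF143 motif (ACTACAATT or AATTGTAGT) was rarer than at GC-poor promoters, in 10 windows (0.13%) against 36 (1.25%), with 0.22% of all shared windows. Bidirectional promoters also had higher shares than the GC-rich promoters for NRF1 (3.68%), YY1 (4.60%), CREB (3.13%) and ZBTB33 (2.39%). The CCAAT box (37.6%) and the ZNF143 motif (1.01%) were likewise more frequent there, and the GC box (60.3%) and the E-box (7.64%) less frequent. The classes were not matched on base composition.

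Motifs of blood transcription factors were scarce at the GC-rich promoters. RUNX, the motif of core binding factor, was in 1.43% of windows, against 5.78% of GC-poor promoters and 9.14% of all shared windows. In the same order, PU1 was in 1.62%, against 4.94% and 6.53%, and the motif of GATA factors, spelled AGATAAG or CTTATCT, in 0.44%, against 2.47% and 3.62%. CEBP (TTGCNNAA or TTNNGCAA) was in 2.90%, against 8.53% and 7.32%, and AP1 (TGANTCA) in 2.10%, against 5.71% and 7.58%. The TATA box, whose letters are A and T alone, was in 1.56%, against 5.88% and 5.94%. All 5 blood motifs and the TATA box were thus rarer than at GC-poor promoters. The scarcity was not particular to this class. At bidirectional promoters, RUNX was in 1.93%, PU1 in 1.93%, GATA in 0.74%, CEBP in 3.41% and AP1 in 1.47%. For all 5 motifs, the intervals of bidirectional and GC-rich promoters overlapped. In GC-rich regions away from starts, which have the same GC minimum, RUNX was in 3.51%, PU1 in 4.22%, GATA in 1.59%, AP1 in 6.69% and CEBP in 3.78%, so 4 of the 5 were over 2 times as frequent there. The TATA box was not: it was in 1.04% of those regions, against 1.56% of the GC-rich promoters, with intervals that overlapped. The CTCF motif (CNAGGGGGC or GCCCCCTNG), that of a protein that holds chromatin loops, was in 4.57% of GC-rich promoters, 4.88% of GC-rich regions away from starts, 1.88% of GC-poor promoters and 2.62% of all shared windows. Of the paired GC-rich promoters, 605 (8.09%) held any of the 5 blood motifs.

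Promoters with a CCAAT box were more accessible than those without. The median pileup was 43 in WT and 44 in KO at the 1965 promoters with a CCAAT box and 30 in each list at the 5509 without. The same order held in every GC group, with KO medians of 46 against 30 at 60 to 65% GC and 31.5 against 27 at 80% or more. Their median KO summit lay at -49 bp, against -4 bp. For the GC box, the medians were 35 in each list with it and 29 in each list without it, and the KO order held in each GC group, by 28 against 27.5 in the highest. For the ETS motif the KO medians were 36 and 33, and for NRF1 34 and 33. Pileup also followed the number of motif kinds in the window. Of the GC box, the CCAAT box and the ETS motif, promoters with none (1390) had a KO median of 25, with 1 kind (3975) 31, with 2 kinds (1945) 42 and with all 3 (164) 43. The WT medians were 26, 32, 41 and 39.5. These are descriptions of 2 lists, and width and GC content differ between the groups.

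The comparison of KO with WT asked whether loss of Med23 moved accessibility at these promoters, given that Mediator acts at starts of transcription. The median log2 KO to WT ratio was 0.086, the value that equal raw pileups give with these backgrounds. The raw pileup was higher in KO at 3639 promoters, higher in WT at 3412 and equal at 423. The summed raw pileup was 318331 in KO and 311106 in WT, a ratio of 1.02. All shared regions had a median log2 ratio of 0.17, GC-poor promoters 0.14, bidirectional promoters 0.086 and GC-poor regions away from starts 0.22. The median of the GC-rich promoters minus that of all shared regions was -0.082 (interval -0.087 to -0.076), and minus that of GC-poor promoters it was -0.058 (-0.079 to -0.040). These intervals cover the sampling of regions within 1 pair of lists, not replicates. With the authors' fold enrichment in place of pileup over genome-wide background, the median was 0.27 at GC-rich promoters, 0.28 at GC-poor promoters and 0.26 over all shared regions, so the order between the GC-rich promoters and all regions depends on the scale.

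Promoters that departed from the general ratio were few. A region was counted as relatively higher or lower in KO when its ratio lay over 1.5-fold from the median of all shared regions. Relatively higher were 217 GC-rich promoters (2.90%, 95% Wilson interval 2.55 to 3.31), against 7.56% of all shared regions, and relatively lower were 578 (7.73%, 7.15 to 8.36), against 7.92%. Most of these had low pileups. Among the 2137 promoters with a summed pileup of at least 100, 28 were relatively higher (1.31%), against 2.08% of all shared regions at that depth, and 25 were relatively lower (1.17%), against 1.2%. The exact binomial interval of the ratio did not hold the median of all regions at 266 promoters (3.56%), against 3.45% of all shared regions, with 90 above and 176 below. The shares of lower promoters and of intervals that missed the median were thus near those of all shared regions, and the share of higher promoters was below it.

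Among the promoters with a summed pileup of at least 100, the highest ratio was at Ctnnal1, an alpha-catenin-like protein, with 37 in WT and 71 in KO (log2 ratio 1.03, interval 0.43 to 1.64). Map2, a microtubule-associated protein, had 57 and 104 (0.95, 0.47 to 1.45), Slc36a4, an amino acid transporter, 39 and 71 (0.95, 0.37 to 1.55), and Otub2, a deubiquitinase, 59 and 107 (0.95, 0.47 to 1.43). Next were 2 genes of mitochondria, Chchd6 with 44 and 77 and Sod2, the mitochondrial superoxide dismutase, with 60 and 104 (0.88, 0.41 to 1.36). The antiviral signaling adaptor Mavs had 39 and 67, the calcium entry regulator Saraf 40 and 69, Mpzl1 37 and 63, and Prc1, a protein of the mitotic spindle midzone, 40 and 68 (0.85, 0.27 to 1.45). The intervals of all 10 lay above the median of all shared regions, but these 10 were picked from 2137 for their ratios. The summits of 7 of the 10 were within 50 bp of each other in WT and KO, near the 64.4% of all 2137 promoters at this depth. Those of Slc36a4 were 373 bp apart.

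The lowest ratio at this depth was at Robo1, a receptor of Slit guidance proteins, with 67 in WT and 34 in KO (-0.89, -1.53 to -0.28). The predicted gene Gm3468 had 71 and 42, and whether its reads are shared with similar copies was not checked. Ran, the GTPase of nuclear transport, had 65 and 39 (-0.65, -1.26 to -0.06), Resf1, a retroelement silencing factor, 68 and 42, and Mdfic 66 and 41. The remaining 5 were Atad2b with 77 and 49, the translation initiation factor Eif1 with 76 and 49 (log2 ratio -0.55), Cacybp with 88 and 57, the signal peptidase subunit Sec11c with 77 and 51, and the cohesin regulator Pds5b with 80 and 53 (-0.51, -1.04 to 0.01). The intervals of all 10 lay below the median of all shared regions (0.17), but these 10 were also picked from 2137 for their ratios. Those of Sec11c and Pds5b reached 0. Among these 10, the WT and KO summits were within 50 bp of each other at Robo1, Gm3468, Mdfic and Cacybp only. At all 10, the local background, the read density that the peak caller expects around a peak, was also lower in KO relative to its genome-wide value, by log2 ratios from -0.42 at Pds5b to -1.18 at Gm3468. It was lower in KO at 93.2% of the 2137 promoters at this depth as well, with a median log2 ratio of -0.28. At the 10 highest, that ratio ranged from -0.17 at Prc1 to 0.28 at Chchd6. Whether the local background had a part in these ratios was not tested.

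The ratio of summed pileups over background was higher at strongly open GC-rich promoters than at weakly open ones. It was 0.068 on the log2 scale at a summed pileup under 30 (829 promoters), 0.037 from 30 to under 50 (1721), 0.085 from 50 to under 100 (2787), 0.14 from 100 to under 150 (1231), 0.16 from 150 to under 200 (488) and 0.17 at 200 or more (418). GC-poor promoters gave 0.058 in the lowest group and 0.27 in the highest, and GC-poor regions away from starts 0.16 and 0.29. In every group from 30 upward, the GC-rich promoters were below both. Bidirectional promoters were lower still up to 150, with -0.00043 from 30 to under 50, 0.048 from 50 to under 100 and 0.10 from 100 to under 150, and GC-rich regions away from starts were lower at 200 or more (0.16, from 28 regions). Across GC content, the ratio of summed pileups was 0.15 at 60 to 65% GC and 0.084 at 80% or more, near the 0.086 of equal raw pileups.

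The local background behaved differently. Relative to the genome-wide background of the list, its median at GC-rich promoters was 2.67 in WT and 2.22 in KO, and it was lower in KO at 82.8% of promoters, against 69.1% of all shared regions. The median log2 ratio was -0.25 (quartiles -0.41 and -0.065), against -0.13 over all shared regions. The median was -0.20 at GC-poor promoters, -0.29 at bidirectional promoters and -0.021 at GC-poor regions away from starts. At GC-rich promoters with a summed pileup under 30 it was 0.00, from 30 to under 50 it was -0.21, and in each group from 50 upward it was between -0.27 and -0.28. In the group under 30, the lower quartile of the local background was at the genome-wide value in both lists (1.13 in KO and 1.19 in WT). That value stands for the lowest local backgrounds, so a promoter at it in both lists has a ratio of 0. Across the GC groups, the median log2 ratio was between -0.23 and -0.27. This background is the denominator of the authors' fold enrichment, whose median log2 ratio was 0.27 where that of pileup was 0.086. The cause of the lower local background in KO was not tested.

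**Figure D4:**
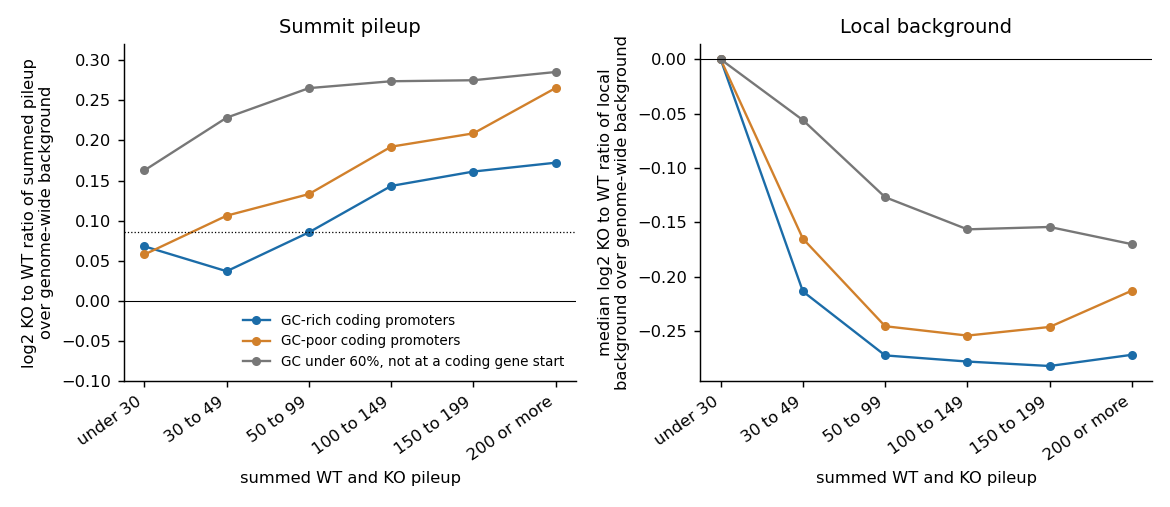
Log2 KO to WT ratio of summed summit pileup (left) and median log2 KO to WT ratio of local background (right), both over the genome-wide background of each list, in groups of regions by summed WT and KO pileup (x axes). The dotted line at 0.086 marks equal raw pileups. The pileup ratio of GC-rich promoters (blue) rises from 0.037 in the group from 30 to under 50 to 0.17 at 200 or more and lies under those of the other classes drawn from 30 upward. Their local background ratio is 0.00 under 30 and lies near -0.27 from 50 upward. In the group under 30, the lower quartile of the local background is at the genome-wide value in both lists.

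Gene lists chosen for this tissue were counted for how often a gene had a shared GC-rich promoter, against 35.8% of all autosomal coding genes. The Polycomb list was nearly complete, with 23 of 24 genes (95.8%, 95% Wilson interval 79.8 to 99.3). Cyclins, CDKs and their inhibitors had 21 of 26 (80.8%), immediate early genes, which respond to stimuli without new protein synthesis, 16 of 20 (interval 58.4 to 91.9), and HSC genes 18 of 30 (42.3 to 75.4). Lists of basic cell functions lay between 44.4% (nuclear pore subunits, 12 of 27) and 61.3% (Mediator subunits, 19 of 31). In these, many of the other genes had a shared promoter of another kind. Of the 31 proteasome genes, 14 had a GC-rich, 6 a bidirectional and 11 a GC-poor promoter, and of the 31 genes of replication origins and forks, 14, 10 and 5. The lymphoid list was lower, with 1 of 24 genes (4.17%, 0.74 to 20.2). Other lists of differentiated cells had lower shares too, with intervals that held the 35.8% of all genes. These were 7 of 27 myeloid genes (25.9%, 13.2 to 44.7) and 5 of 19 erythroid and megakaryocyte genes (26.3%, 11.8 to 48.8). Stroma and endothelium had 4 of 14 genes (28.6%, 11.7 to 54.6).

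**Figure D5:**
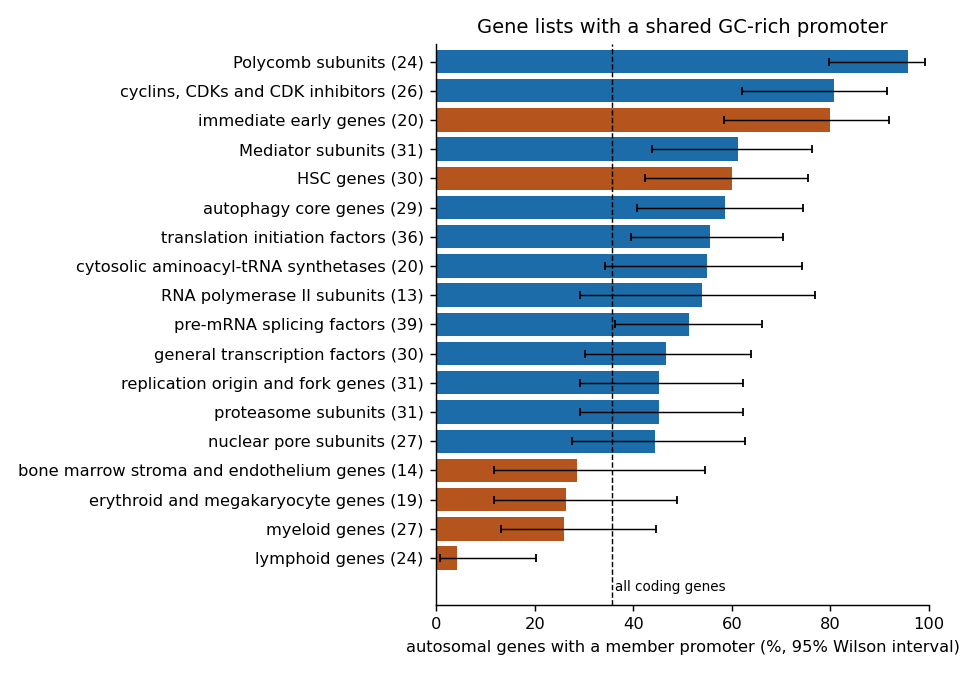
Percent of the autosomal genes of each list (number in parentheses) that have a shared GC-rich promoter, with 95% Wilson intervals. Blue bars are lists of general cell functions, brown bars lists of blood, stroma and stimulus-response genes, and the dashed line is the share of all autosomal coding genes (35.8%). The Polycomb list is highest at 95.8% and the lymphoid list lowest at 4.17%.

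The same lists were read as markers of the labelled cell type, against 40.0% of all autosomal coding genes with no KO summit within 1000 bp of a start. Of the 30 HSC genes, 23 had a shared promoter of a GC-rich or GC-poor kind, and 7 (23.3%) had no KO summit there, among them Slamf1, which encodes CD150, and Ly6a, which encodes Sca-1. Both proteins were used in the sort, and the names were picked after the values were seen. Kit and Cd34 encode other proteins of the sort (KIT-positive and, by the labels, CD34-negative cells). Both of these genes had a shared GC-rich promoter. No KO summit was found at 18 of the 24 lymphoid genes (75%), 15 of the 27 myeloid (55.6%), 7 of the 14 stroma and endothelium (50%) and 7 of the 19 erythroid and megakaryocyte genes (36.8%), so the last list was below the share of all genes. The single lymphoid member, Pax5, had 27 in WT and 23 in KO, with its summit at -568 bp from the start.

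The KO to WT ratios of the listed promoters lay around the median of the class. The counts past 1.5-fold in each list are to be read against 2.90% of the GC-rich promoters relatively higher and 7.73% relatively lower (7.56% and 7.92% of all shared regions), shares at which a list of this size holds few or none. The list medians ranged from -0.16 for autophagy genes to 0.30 for stroma and endothelium genes, the latter from 4 promoters only. Among 19 Mediator promoters, the median was 0.11, 0 were relatively higher and 1 relatively lower past 1.5-fold, and their median pileups were 47 (WT) and 44 (KO). The highest ratios were at Med17, a subunit of the head module, with 30 and 44 (0.64, -0.06 to 1.36), and Med13l with 17 and 25. The lowest were at Med15, a tail subunit, with 30 and 19 (-0.57, -1.48 to 0.30), and Med9 with 11 and 9. The intervals of these named promoters held the median of all shared regions. At 1 other of the 19 the interval lay above it, where 3.56% of all GC-rich promoters had an interval that missed it. Of 14 promoters of general transcription factors 2 were relatively lower, and of 7 promoters of RNA polymerase II subunits none of either direction was found, with Polr2a, the largest subunit, at 52 and 61.

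Among the genes of RNA processing and protein synthesis, Sf3b6, a subunit of the U2 splicing complex, had 30 in WT and 62 in KO (1.13, 0.48 to 1.81), the only promoter of 20 splicing factor promoters that was relatively higher. Of the same 20, 2 were relatively lower. Eif4g1, the scaffold of cap-dependent initiation, had 23 and 40 (0.88, 0.11 to 1.69), an interval that held the median of all shared regions (0.17). At the other end, Eif2b3 had 19 and 10 (-0.84, -2.11 to 0.34) and Eif4a3 25 and 14. Of the 20 translation initiation promoters, 1 was relatively higher and 4 relatively lower. The proteasome subunit Psma1 had 40 and 21 (-0.84, -1.68 to -0.05), the only promoter of 14 in its list past 1.5-fold.

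Among 17 autophagy promoters 3 were relatively lower, and among the cell cycle promoters 3 of 21 were relatively lower and 0 relatively higher. The lowest was Rb1, the retinoblastoma protein that restrains entry into S phase, with 30 and 18 (-0.65, -1.58 to 0.24), followed by Ccnb1, a mitotic cyclin, with 44 and 29. The highest was Cdkn2d, a CDK inhibitor, with 112 and 140 (0.41, 0.04 to 0.78). None of the 14 replication promoters was past 1.5-fold in either direction, and Rfc3, a subunit of the clamp loader, had 80 and 105 (0.48, 0.04 to 0.92). The intervals of Cdkn2d and Rfc3 held the median of all shared regions (0.17). Of the 26 Polycomb promoters, 2 were relatively lower (Cbx7 with 14 and 9, Cbx6 with 26 and 17), and Bmi1, a subunit of PRC1 needed for HSC self-renewal, had 28 and 43 (0.70, -0.02 to 1.45), under the 1.5-fold line.

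Of the 16 paired promoters of HSC genes, none was past 1.5-fold in either direction. The highest ratios were at Kit, the receptor of stem cell factor, with 28 and 37 (0.49, -0.26 to 1.25), and Cd34 with 30 and 37. The Kit summit lay 810 bp downstream of the nearest start. The lowest ratios were at Lmo2, a scaffold of the SCL complex, with 51 and 36 (-0.42, -1.07 to 0.23), and Egr1 with 89 and 76. Of 8 paired promoters of myeloid genes, 1 was relatively lower, Csf3r, the G-CSF receptor, with 20 and 12 (-0.65, -1.82 to 0.45). Spi1, which encodes PU.1, had 2 such promoters that went in opposite directions, with 38 and 51 at the summit 663 bp downstream of the start and 31 and 22 at that 407 bp downstream. Among 17 paired promoters of immediate early genes, Egr3 had 25 and 12 (-0.97, -2.10 to 0.07) and Zfp36, an RNA-binding protein that destabilises cytokine messages, 56 and 75 (0.51, -0.01 to 1.03). Of the 17, 2 were relatively lower and 0 relatively higher.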

How the data were processed

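By the study's account, reads were trimmed with Trim Galore, aligned to mm10 with Bowtie2, cleared of duplicates with Picard and passed to MACS2 run without a fragment model. Versions are not given in the sources used here. For each peak, the deposited lists give the authors' fold enrichment of summit pileup over local background (a ratio) and the authors' −log10 p and −log10 q values. Sequencing depth is unknown, since no read totals are in the lists. Only the 2 lists, 1 per genotype, were used, with each sample's genotype taken from its label. The summit lists repeated the positions in the peak lists.

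Pileup and local background were solved from fold enrichment and −log10 p under the caller's Poisson model, and a whole-number pileup matched within 0.001 for 99.99% of peaks of each list. The procedure was tested on simulated data. The median of the 1000 lowest local backgrounds stood for the genome-wide background. Ratios are log2 of pileup over that background, with no pseudocount, in regions with 1 peak of each list, with exact binomial intervals. Starts are those of protein-coding transcripts in GENCODE M21, and sequences come from GRCm38.p6 (RefSeq). Python 3.11.15, numpy 2.4.6, pandas 2.3.3, scipy 1.17.1 and pysam 0.24.0 were used.

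Promoters and gene lists were chosen with earlier results of these data known. The genes named are Med23, Cebpa, the 5 highest and 5 lowest KO pileups, the 10 highest and 10 lowest ratios at a summed pileup of at least 100, the 3 promoters on each side of 60% GC, and up to 2 highest and 2 lowest ratios of each list. Of 480 listed genes, those not on an autosome or not in the annotation under the listed symbol were not counted. A member of a list with no value had more than 1 peak in its region.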

Additional observations from a re-analysis of the deposited data

How the results depend on the processing

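The alternatives at a summed pileup of at least 100, and all those for the difference from all shared regions and for local backgrounds, were chosen after seeing the data. The number of promoters stayed within 1.5 times of 7698 in all 8 alternatives, from 5633 to 9103. The median log2 ratio of 0.086 became 0.00 with raw pileups (no background scaling), 0.27 with fold enrichment and 0.15 at a summed pileup of at least 100. The difference of this median from that of all shared regions, -0.082, turned to 0.014 with fold enrichment, whose denominator is the local background. It was -0.040 at a summed pileup of at least 100 and -0.067 where both lists were limited to −log10 q values of 10 or more (the stricter q). The difference from GC-poor promoters, -0.058, became -0.0032 with fold enrichment. The local background ratio, -0.25, was -0.28 at the higher pileup and -0.27 at the stricter q.

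The share relatively higher in KO, 2.90%, was 1.80% at the stricter q, 1.55% with fold enrichment, 0.35% past 2-fold and 1.08% at a summed pileup of at least 100 around the median at that depth. The share relatively lower, 7.73%, was 4.40%, 4.31%, 0.82% and 1.36% in the same order. Summits within 50 bp were 58.9% at the stricter q and 64.4% at the higher pileup. Upstream summits were 55.4% with a GC minimum of 65%, 62.3% at the stricter q, 67.7% at the higher pileup and 46.3% with gene 5′ ends. The median width was 969 bp at 65% GC and 1031.5 bp at the stricter q, and the median KO pileup 42 with the latter. The share of genes was 41.8% at 55% GC, 26.4% at 65% GC and 26.7% at the stricter q. The other alternatives of the percentages and medians stayed within the counting interval of their value. Causes of these moves were not tested.

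No paired analysis was possible because a single list stands for both samples of a genotype. Replicates could not be left out in turn, as none has a list of its own. With a median pileup of 33, a 1.5-fold difference at a typical promoter is near the counting error, and promoters called in 1 list only do not enter.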
